A study of Mus musculus with 4 samples.

Results

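Saa3, Lcn2 and Hp are 3 of the 27998 gene features counted in every cell of this series, and they were found by their symbols. They were chosen by their measured levels in these same libraries, which differed between treatments and cell types, so those levels are given as a description and no test was made of them. The cells came from mouse mammary tumours of the MT4788 line, grown in FVB mice and recorded as wild-type, collected at day 4 and enriched for CD45+ leukocytes. All animals carried the same tumour, and the treatments were Saline+PBS (the control), Saline+Phenformin (called phenformin here), Poly I:C+PBS (called poly I:C), and both agents, Poly I:C+Phenformin (called the combination). Phenformin is a biguanide that inhibits mitochondrial complex I, and poly I:C, a double-stranded RNA analogue, activates Toll-like receptor 3. Each treatment had 1 library of single-cell 3′ RNA counts, and the number of tumours pooled into a library is not given in the sources used here. With 1 library per treatment there is no replicate check: every interval below is a 95% interval that covers counting error only, and no p-value can be given.

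Acute-phase proteins are secreted in inflammation and infection, chiefly by hepatocytes under interleukin-6 and interleukin-1, but several are also made in inflamed tissue. Saa3 encodes a serum amyloid A that in the mouse is made mainly outside the liver, in macrophages, adipose tissue and stroma. Lcn2 encodes lipocalin 2, which binds iron-carrying bacterial siderophores and is stored in neutrophil granules as well as secreted by epithelia. Hp encodes haptoglobin, which binds free haemoglobin for uptake through CD163 and which maturing neutrophils also store in granules.

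All 3 genes lie on minus strands of GRCm38 with no overlapping gene in the GENCODE annotation of the mouse genome. Saa3 (ENSMUSG00000040026) lies on chromosome 7 from 46711998 to 46715700 with 4 exons. Lcn2 (ENSMUSG00000026822) lies on chromosome 2 from 32384633 to 32388252 with 6 exons. Hp (ENSMUSG00000031722) lies on chromosome 8 from 109575128 to 109579172 with 5 exons. For Saa3 and Lcn2 the 250 bases before the RefSeq start are shown. Inducible serum amyloid and lipocalin genes are textbook targets of C/EBP, NF-kB and STAT factors. The windows are RefSeq promoters on GRCm38.p6, read 5′ to 3′ along the minus strand. Capitals mark each match to the C/EBP motif TTNNGNAA on either strand. The GENCODE genes above start further upstream: the Saa3 window reaches into its GENCODE gene, and the Lcn2 window lies wholly inside its own.
Saa3, chr7:46715677-46715926: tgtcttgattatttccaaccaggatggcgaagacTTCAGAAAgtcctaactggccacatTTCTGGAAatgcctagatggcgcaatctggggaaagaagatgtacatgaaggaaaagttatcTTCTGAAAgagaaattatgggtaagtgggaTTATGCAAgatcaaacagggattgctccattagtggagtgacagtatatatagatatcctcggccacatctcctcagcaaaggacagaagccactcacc
Lcn2, chr2:32387740-32387989: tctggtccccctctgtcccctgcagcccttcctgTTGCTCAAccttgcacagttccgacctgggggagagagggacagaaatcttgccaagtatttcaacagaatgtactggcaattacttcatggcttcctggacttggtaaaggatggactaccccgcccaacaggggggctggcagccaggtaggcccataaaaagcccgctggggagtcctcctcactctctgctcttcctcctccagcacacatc
The Saa3 window held 4 matches and the Lcn2 window 1. Of 32851 mouse promoter windows of the same length, 36.8% held at least 1 such match. The NF-kB motif (GGGA, any 4 bases, CC) was in neither window and in 17.6% of all windows. The STAT motif TTCNNNGAA was in neither window and in 7.02% of all windows.

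Cells were kept if they had 200 or more genes and fewer than 20% of their UMIs from mitochondrial genes. The control, phenformin, poly I:C and combination libraries then held 6095, 5453, 6619 and 8268 cells, with median depths of 6543, 8312, 8430 and 5901 UMIs per cell. Values in series of 4 below follow that order. Cells were gated by raw UMIs: macrophage (Csf1r, Cd68 and Adgre1, at least 3 together), monocyte (at least 2 Ly6c2, under 5 C1qa, C1qb and C1qc), neutrophil (at least 5 S100a8 and S100a9, at least 1 Csf3r or Cxcr2) and tumour (at least 5 Krt5 and Krt14, no Ptprc). Macrophage gates held 2030, 2268, 2641 and 2759 cells, monocyte gates 1093, 1062, 1391 and 1409, neutrophil gates 218, 178, 211 and 280, and tumour gates 376, 209, 592 and 420. Gates can overlap: 478, 552, 579 and 485 cells were in both the macrophage and the monocyte gate. Further marker genes were compared between the gates. The neutrophil ones included Cxcr2, which its gate used, and the macrophage ones C1qa, C1qb and C1qc, which the monocyte gate limits, so the gates partly set these outcomes. All 7 for macrophages, all 6 for tumour epithelium and all 5 for neutrophils were highest in their own gate in all 4 libraries. Only 4, 3, 3 and 2 of 5 monocyte genes were. The monocyte gate therefore goes by its rule here; T cell genes summed to 587, 533, 970 and 1180 CPM in it, where CPM are UMIs per 1000000 UMIs of the gate. The tumour gate and the other cells without Ptprc remained after the CD45 enrichment, and that sort can set their number. Libraries shared 11 to 29 cell barcodes per pair, 94 of 30725 distinct barcodes in all.

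Saa3 and Hp came mostly from myeloid cells, with Saa3 from fibroblast-gate cells in the poly I:C library, and Lcn2 came mostly from epithelium. Macrophages, monocytes and dendritic cells together held 58.2%, 91.1%, 33.2% and 62.3% of all Saa3 UMIs and 62.2%, 72.5%, 56.6% and 48.1% of all Hp UMIs. Neutrophils held a further 16.4%, 15.6%, 11.5% and 15.2% of Hp UMIs. Cells of the fibroblast gate (at least 5 UMIs of Col1a1, Col1a2, Col3a1 and Dcn, no Ptprc, under 5 of Krt5 and Krt14) held 0%, 1.82%, 56.6% and 9.57% of all Saa3 UMIs. These shares count each cell in 1 class, and cells that met the gates of several classes are a class of their own, with 30.5%, 1.41%, 4.42% and 6.94% of Saa3 UMIs. Most Lcn2 UMIs were epithelial: the tumour gate and a simple-epithelial gate (at least 5 Krt8, Krt18 and Epcam, under 5 Krt5 and Krt14, no Ptprc) together held 61%, 86.9%, 59.9% and 72% of them in 283, 178, 473 and 365 cells. Over all kept cells Saa3 was at 9.56, 27.9, 88.9 and 71.4 CPM, Lcn2 at 171, 210, 113 and 293 CPM, and Hp at 22.1, 19, 24.3 and 36.5 CPM. These sums mix cell types whose number differs between libraries, so the results below are given within gates.

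**Figure D1:**
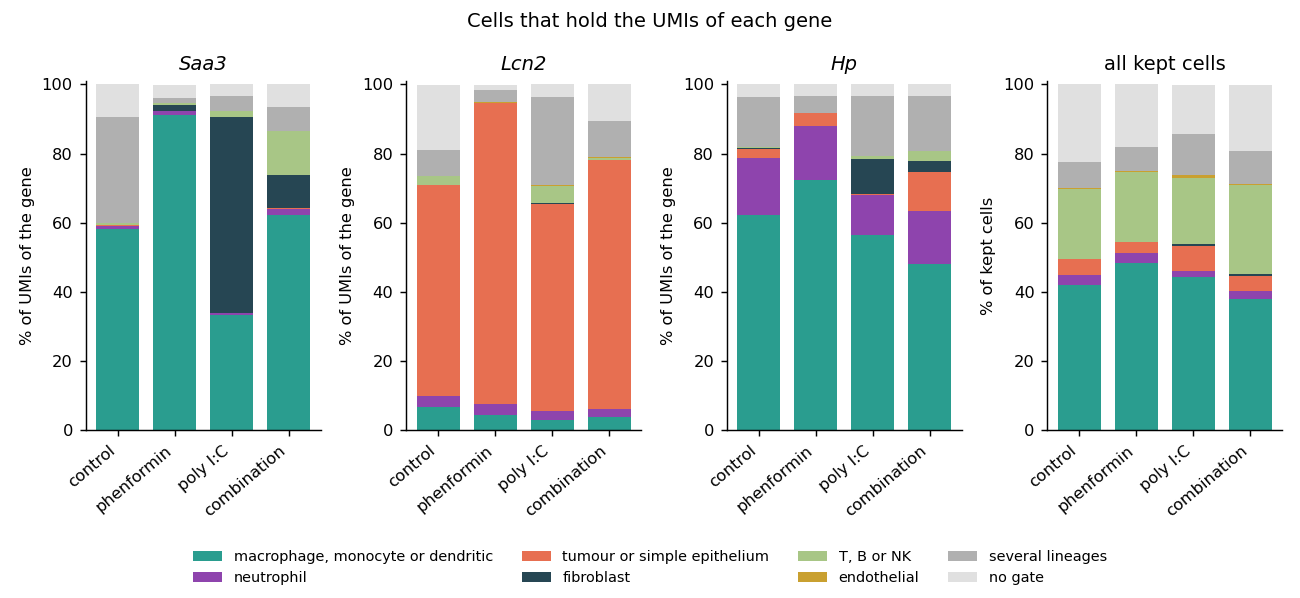
Share (%) of the UMIs of Saa3, Lcn2 and Hp held by each class of cells in the 4 libraries, with the share of kept cells in the right panel; cells that met the gates of several classes are a class of their own. Macrophages, monocytes and dendritic cells held 91.1% of Saa3 UMIs with phenformin but 33.2% with poly I:C, where the fibroblast gate held 56.6%.

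**Figure D2:**
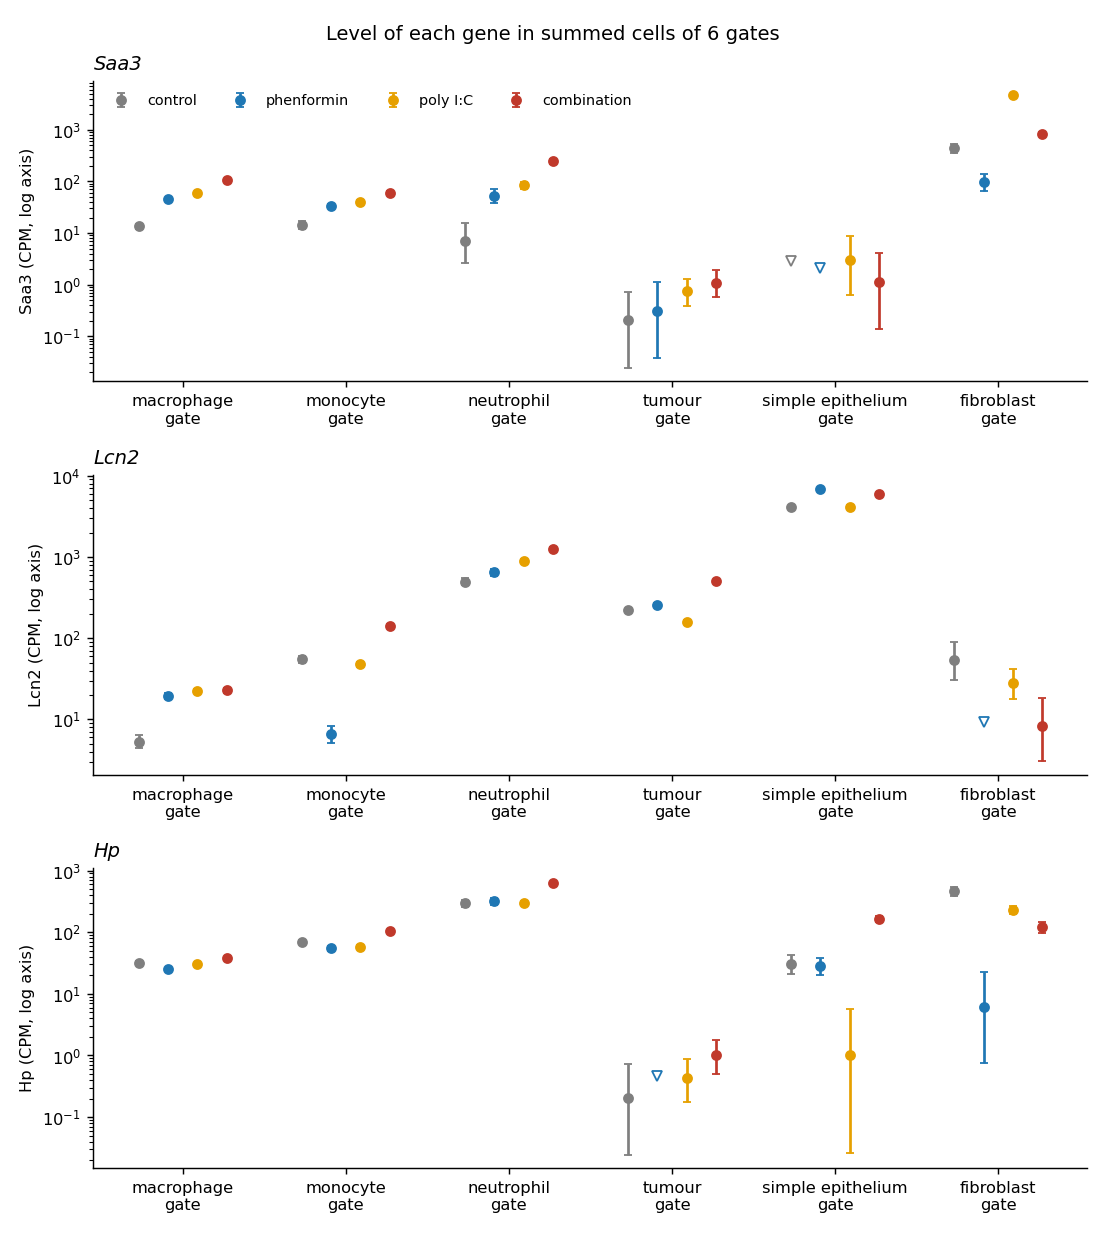
Level of each gene in CPM (log axis) by gate and library, with 95% counting intervals; open triangles mark a sum of 0 UMIs, drawn at the limit of 3 counts. Saa3 was ordered control, phenformin, poly I:C, combination in the macrophage, monocyte and neutrophil gates, from 13.5 to 107 CPM in the macrophage gate.

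Saa3 was higher in the macrophage gate of every treated library than in that of the control, and highest in the combination. In the control its level was 13.5 CPM (12 to 15.1). It was 45.1 CPM (42.8 to 47.5) in the phenformin library, 60.2 CPM (57.7 to 62.7) in the poly I:C library and 107 CPM (103 to 110) in the combination, from 303, 1420, 2247 and 3362 UMIs. No neighbouring intervals in this order overlapped. Relative to control, phenformin gave a ratio of 3.35 (2.96 to 3.8), poly I:C one of 4.47 (3.96 to 5.06) and the combination one of 7.93 (7.05 to 8.95). The combination was 1.77 times (1.68 to 1.87) the level with poly I:C alone and 2.37 times (2.22 to 2.52) that with phenformin alone.

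A feature is counted as called where the libraries were at least 1.5-fold apart, the interval of the ratio left out 1 and the higher library reached 20 CPM. By that rule 0.426% of all features tested in the macrophage gate were called higher and 0.479% lower with phenformin, 2.72% and 4.27% with poly I:C, and 3.98% and 4.64% with both, each over control. Set against poly I:C alone the combination had 1.05% called higher, and against phenformin alone 3.92%. Saa3 was among those called in all 5 comparisons, and since these values helped to choose it, that count is a description only. Called features in the macrophage gate numbered 24 higher and 27 lower with phenformin, 155 and 243 with poly I:C, and 230 and 268 with both. With TMM factors, which rescale the libraries, they numbered 31 and 19, 197 and 148, and 242 and 254.

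Few macrophages carried Saa3 UMIs. They were 72, 151, 377 and 462 cells, or 3.55%, 6.66%, 14.3% and 16.7% of the gate, at median depths of 9337, 12108, 12136 and 10361 UMIs per cell. After thinning to 1000 UMIs, which 2027, 2263, 2641 and 2752 macrophages reached, the shares were 1.13%, 1.9%, 3.63% and 6.25%. In the T cell gate (at least 2 Cd3d, Cd3e and Cd3g and no UMI of the macrophage genes), which should lack the gene, shares were 0.372%, 0.739%, 0.83% and 2.68% at median depths of 6013, 6657, 5475 and 4598 UMIs, and 0.0754%, 0.413%, 0.417% and 0.803% when thinned. The share in macrophages was above that in T cells in all 4 libraries, thinned or not. The highest macrophage held 27, 132, 214 and 138 Saa3 UMIs. Without the 5 highest cells of each library the level was 8.61, 30.1, 43.3 and 92.3 CPM, in the same order.

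The order of the 4 libraries in the macrophage gate held under most changes of the cells used, while the size moved. Ratios to control were 4.4, 6.99 and 9.64 among macrophages in no other gate, and 8.02 and 17.3 for poly I:C and the combination with the top 1% of cells by Saa3 left out. They were 3.56, 2.81 and 5.22 after the T cell level was subtracted, which put poly I:C below phenformin. That T cell level lay mostly in a few cells: with poly I:C and with both it was 25.4 and 42 CPM. Without the 5 highest cells it was 0.739 and 4 CPM. In macrophages with no collagen or decorin UMI, Saa3 was at 13.4, 46.7, 52.6 and 103 CPM, and in those with no S100a8 or S100a9 UMI at 11.8, 31.9, 40.7 and 106 CPM. Over the whole gate, neutrophil genes summed to 110, 146, 273 and 372 CPM and fibroblast genes to 73.4, 39.4, 159 and 84.9 CPM.

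**Figure D3:**
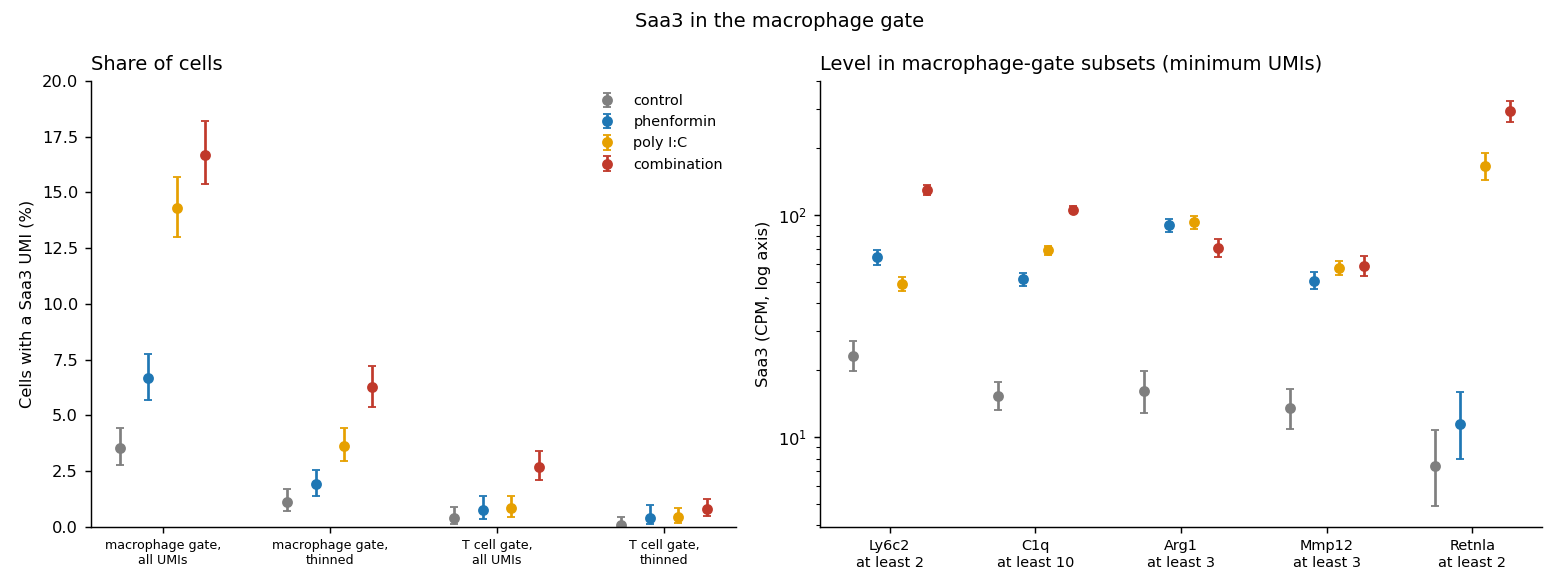
Left, percentage of cells with a Saa3 UMI in the macrophage and T cell gates, as counted and after thinning to 1000 UMIs, with 95% binomial intervals; right, Saa3 level (CPM, log axis) in macrophages split by other genes, with 95% counting intervals. Retnla-bearing macrophages ranged from 7.39 CPM in the control to 292 CPM with both agents, the widest range of the subsets drawn.

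Saa3 was found across macrophage states. Macrophages with at least 2 Ly6c2 UMIs, a gene of recently arrived monocytes, had 23.2, 64.5, 49 and 129 CPM. Those with at least 10 C1q UMIs, a complement component of differentiated macrophages, had 15.3, 51.2, 69.3 and 106 CPM. Both subsets were highest in the combination. In macrophages with Arg1, which encodes arginase 1, the level was 16.1, 89.6, 92.4 and 71.1 CPM, so that there the combination was below either single agent. By share of these cells with a Saa3 UMI, at 4.24%, 11.8%, 21.4% and 18.3%, the combination was below poly I:C but above phenformin. In those with Mmp12, the macrophage elastase, it was 13.5, 50.6, 57.6 and 59.1 CPM. In those with Retnla, a gene induced by interleukin-4, it was 7.39, 11.5, 166 and 292 CPM in 300, 186, 69 and 98 cells: low in the control and phenformin libraries, high in both that received poly I:C.

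Macrophages with a Saa3 UMI also differed from those without in other genes, which were ranked by their smallest difference over the 4 libraries. Chil1, a chitinase-like secreted protein, was at 270, 271, 111 and 113 CPM with Saa3 against 42.4, 82.1, 42.4 and 38.7 CPM without. H2-M2, a non-classical class I molecule, was at 784, 978, 459 and 513 CPM against 252, 215, 247 and 254 CPM. Chil3 (Ym1), Cst7 (cystatin F), Lyz2 (lysozyme), Nos2 (inducible nitric oxide synthase), Hal (histidine ammonia lyase), Inhba (activin A), F7 (coagulation factor VII) and Ccl5 were also higher in all 4 libraries. Siglech and Ly6d, known from plasmacytoid dendritic cells, Klk1, Sfn and Slamf9 were lower in all 4. Cells with a UMI are also the deeper cells, and the part of depth in these differences was not tested.

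In the monocyte gate Saa3 was at 14.4, 33.5, 39.7 and 59.6 CPM, in the order seen in macrophages. Over control the ratios were 2.33 with phenformin, 2.76 with poly I:C and 4.14 with both. In this gate 0.973%, 2.79% and 3.48% of all features were called higher and 1.44%, 9.41% and 7.48% lower, and called features numbered 58 higher and 86 lower, 168 and 566, and 211 and 454. With TMM factors they numbered 85 and 60, 272 and 305, and 309 and 319. Most of these Saa3 UMIs lay in few cells, the 5 highest holding 73%, 68.4%, 50.1% and 40.1% of them. In monocyte-gate cells outside the macrophage and neutrophil gates the level was 12.2, 2.17, 39.7 and 17.8 CPM, which put phenformin below control and the combination below poly I:C.

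In the neutrophil gate Saa3 was at 7.1 CPM in the control, 52.6 CPM with phenformin, 83.9 CPM with poly I:C and 247 CPM with both. These levels rested on 6, 39, 142 and 318 UMIs in 4, 8, 29 and 33 cells. The ratio to control was 7.42 (3.12 to 21.4), 11.8 (5.3 to 32.8) and 34.8 (15.8 to 95.5), wide because the control held so few UMIs. With cells of at least 500 genes and under 10% mitochondrial UMIs only, it was 14.4, 22.8 and 66.4. In this gate 4.35%, 16.5% and 8.25% of all features were called higher over control and 7.33%, 13.7% and 15% lower. Called features numbered 245 higher and 413 lower with phenformin, 978 and 812 with poly I:C, and 466 and 848 with both; TMM factors made these 339 and 317, 651 and 1057, and 634 and 649. Macrophage genes in the neutrophil gate were also higher in each treated library than in the control. The defining macrophage genes summed to 1784, 5434, 9949 and 9492 CPM, with the combination below poly I:C. Csf1r, Cd68 and Adgre1 summed to 356, 435, 564 and 626 CPM, with the combination above poly I:C. The part of macrophage genes in this Saa3 level was not tested. In neutrophil-gate cells with no Csf1r, Cd68 or Adgre1 UMI, Saa3 was at 13.6, 15, 96.3 and 160 CPM, so that the ratio with phenformin was 1.1. Without the 5 highest cells the gate was at 0, 4.24, 38.7 and 98.7 CPM.

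Fibroblast-gate cells were few, 16, 15, 48 and 52, but some were rich in Saa3. Their summed level was 437, 96.4, 4653 and 824 CPM from 120, 31, 3823 and 594 UMIs. In the control, its Saa3 lay in cells that also met the gate of another class. Of these cells, 2, 5, 29 and 24 held a Saa3 UMI, or 12.5%, 33.3%, 60.4% and 46.2%. The highest cell alone held 112, 18, 1402 and 154 UMIs. Without it the level was 33.2, 43.8, 3077 and 635 CPM, and without the 5 highest cells 0, 0, 1484 and 259 CPM. Both libraries with poly I:C were above the other libraries in each of these versions.

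The fibroblast-gate cells with Saa3 were not of the same make as those without. Cxcl12, a stromal chemokine, was at 3832, 1860, 1335 and 1404 CPM with Saa3 against 188, 112, 139 and 395 CPM without. Ptx3, a long pentraxin of local inflammation, was at 3163, 251, 1083 and 1662 CPM against 342, 49.6, 255 and 588 CPM. Rgs5, a pericyte gene, was at 0, 0, 0 and 143 CPM in cells with Saa3 and at 2270, 822, 363 and 753 CPM in cells without. Sfrp2 was higher with Saa3, and Cspg4, Mcam, Abcc9 and Nes were lower, in all 4 libraries. The gate as a whole had Il6 at 1045, 439, 459 and 582 CPM, with no treated library above the control.

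In the tumour gate Saa3 was near 0, at 0.202, 0.312, 0.743 and 1.1 CPM. In the T cell gate it was at 1.07, 0.958, 25.4 and 42 CPM, where 1 poly I:C cell held 153 UMIs and 1 combination cell 565. Without the 5 highest cells it was at 0, 0.349, 0.739 and 4 CPM. Without cells that held a collagen or decorin UMI the T cell gate was at 0.36, 0.992, 0.766 and 4.42 CPM. Reads of Saa3 could in principle be shared with its paralogs, and those were rare in all kept cells. Saa1 had 57, 6, 5 and 148 UMIs and Saa2 had 12, 0, 2 and 121, against 548, 1706, 6760 and 5090 for Saa3.

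Lcn2 was highest in the simple-epithelial gate, where nearly every cell carried it. Its level there was 4121, 6896, 4179 and 5987 CPM, and 90.4%, 91.5%, 81.6% and 94.7% of its 52, 47, 38 and 76 cells held a UMI. Without the 5 highest cells the level was 2677, 3181, 1988 and 4808 CPM: the combination library was then the highest and poly I:C the lowest.

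In the tumour gate Lcn2 was at 222, 255, 160 and 508 CPM, highest in the combination. The combination was 2.28 times (2.17 to 2.4) the control, 3.17 times poly I:C and 1.99 times phenformin, while phenformin and poly I:C alone were 1.15 and 0.721 times control. In this gate 1.82% of all features were called higher and 11.7% lower in the combination over control, 108 and 697 features, or 342 and 254 with TMM factors; 0.558% and 1.18% were called higher in the combination over poly I:C and phenformin. Most cells of the tumour gate, 96.3%, 97.1%, 97.8% and 97.4%, also held at least 5 UMIs of Krt8, Krt18 and Epcam. Shares of cells with Lcn2 were close between libraries, at 44.4%, 56.5%, 44.6% and 50%, and at 9.41%, 11.1%, 9.98% and 10.5% after thinning. The combination level leaned on few cells, the highest holding 1399 UMIs. Without the 5 highest cells the levels were 105, 132, 117 and 204 CPM. With the deepest 5% of cells left out, the combination was 1.36 times control and 0.414 times phenformin, so that the order of the last pair turned.

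Tumour cells with Lcn2 were compared with those without in the same way. They were the deeper cells in all 4 libraries, with medians of 29411, 33438, 28011 and 27358 UMIs against 21998, 23929, 24228 and 22668, and the part of depth was not tested. Trf, which encodes the iron carrier transferrin, was at 327, 433, 497 and 706 CPM with Lcn2 against 46.5, 66.6, 39 and 27.1 CPM without. Lbp, the lipopolysaccharide-binding protein, was at 58.6, 72.5, 52.5 and 69.5 CPM against 17.5, 24.4, 19 and 19.1 CPM. Cp (the copper ferroxidase ceruloplasmin), Igfbp5, Mgst1, Wfdc18, Chchd10, Serpine2, Pi15 and Gbp8 were higher too. Klk8, Il24 and Krt6a, genes of stratified or wounded epithelium, were lower with Lcn2, as was Krt14, which the gate itself used.

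**Figure D4:**
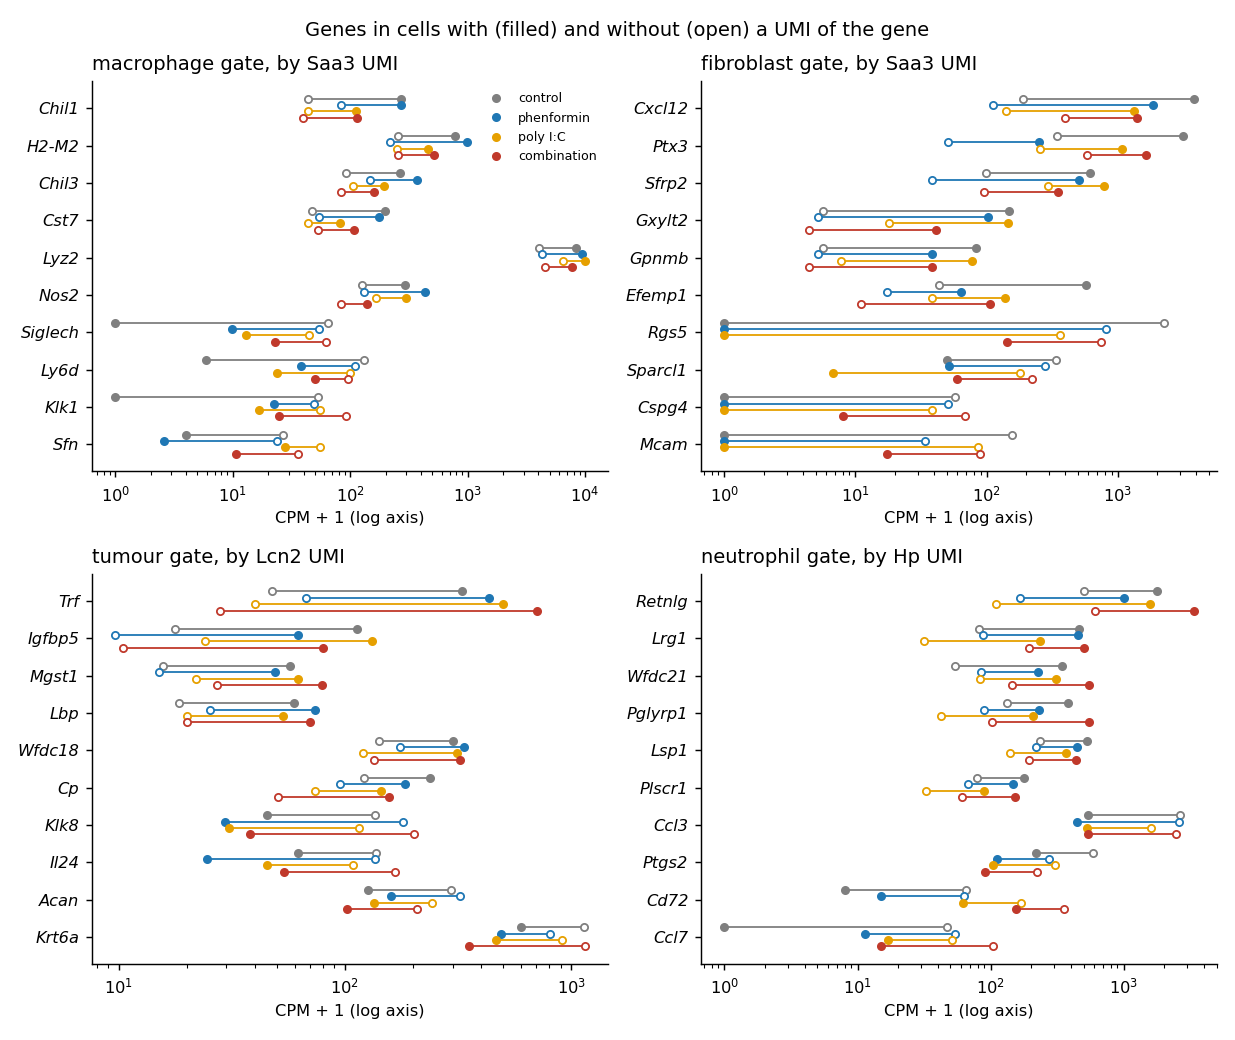
Level (CPM + 1, log axis) of the leading 6 higher and 4 lower genes of each ranking, in cells with a UMI of Saa3, Lcn2 or Hp (filled points) and in cells of the same gate without one (open points), with a line joining each pair, 1 pair per library. Filled points to the right of open ones are genes higher in cells with the gene, such as Trf in tumour cells with Lcn2 (706 against 27.1 CPM in the combination).

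In the neutrophil gate Lcn2 was at 497 CPM (450 to 547), 645 CPM (589 to 706), 896 CPM (851 to 942) and 1259 CPM (1198 to 1322). The ratio to control was 1.3 (1.14 to 1.48) with phenformin, which was not called, 1.8 (1.62 to 2.01) with poly I:C and 2.53 (2.28 to 2.83) with both. Cells with a UMI were 73, 78, 102 and 152, or 33.5%, 43.8%, 48.3% and 54.3% at median depths of 1984, 2269, 2530 and 2316 UMIs. After thinning, which 205, 163, 207 and 274 cells reached, they were 25.4%, 30.1%, 30% and 39.1%. Epithelial genes were present in this gate: Krt8, Krt18 and Epcam summed to 209, 93.1, 479 and 83.8 CPM, highest with poly I:C, and Krt5 and Krt14 to 363, 684, 257 and 90 CPM, and their part in the Lcn2 levels was not tested.

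The poly I:C level rested on few neutrophils. Its highest cell held 649 UMIs, against 49 in the control, 31 with phenformin and 371 in the combination. Without the highest cell of each library the levels were 441, 605, 532 and 994 CPM, and without the 5 highest 337, 485, 299 and 710 CPM. With the top 1% of cells by Lcn2 left out, poly I:C was 0.851 times control and the combination 1.88 times. Thinned to 1000 UMIs per cell, the ratios were 1.29 and 1.59.

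Neutrophils with a UMI of Camp or Ngp, granule genes of immature neutrophils, numbered 3, 3, 19 and 23. Lcn2 in them was at 1705, 444, 2495 and 4678 CPM. In the neutrophils without these UMIs it was at 451, 656, 712 and 636 CPM, so that the 3 treated libraries lay close together and the combination was 1.41 times control. In neutrophils with no macrophage UMI it was at 716, 854, 3072 and 2473 CPM, with poly I:C above the combination. Neutrophils with Lcn2 had Retnlg, a neutrophil resistin-like gene, at 1959, 789, 1655 and 3552 CPM against 217, 237, 220 and 741 CPM without. Wfdc21, Ltf (lactoferrin of secondary granules), Cd177 and Ifitm6 were higher with Lcn2 in all 4 libraries, and Clec10a, Gadd45b and Atf3 were lower.

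**Figure D5:**
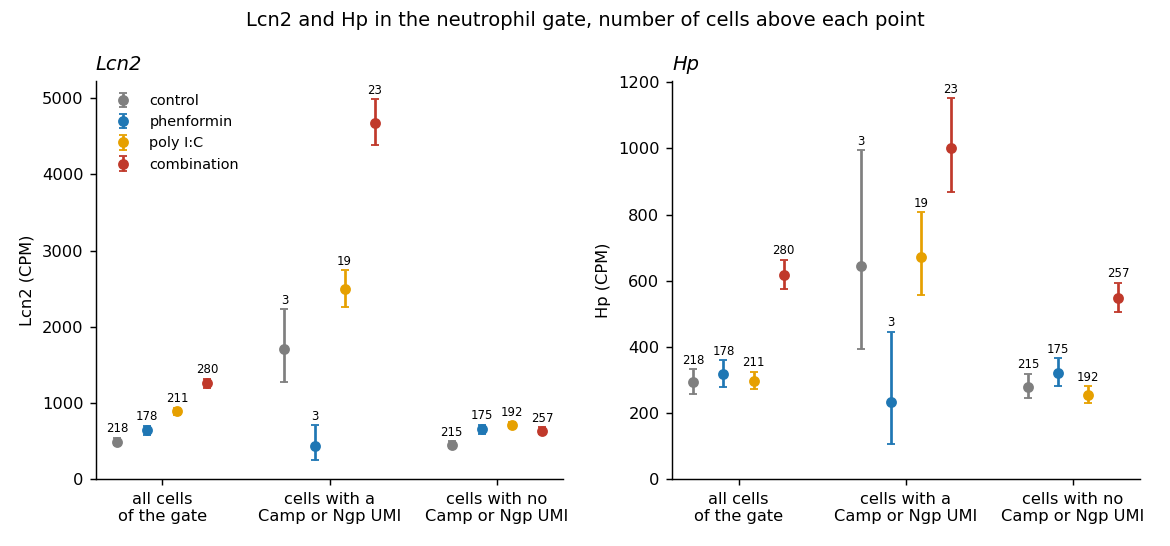
Lcn2 and Hp levels (CPM) in the neutrophil gate by library with 95% counting intervals, for the whole gate and for its cells with and without a Camp or Ngp UMI. Lcn2 in the combination was at 4678 CPM in cells with these granule genes and 636 CPM in cells without.

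Lcn2 was also found in dendritic cells. In a migratory dendritic gate (at least 5 UMIs of Ccr7, Fscn1 and Ccl22, no Cd3 UMI) it was at 90.7, 65.5, 57 and 126 CPM, and 23%, 19.3%, 25.3% and 25% of cells held a UMI at median depths of 17830, 17943, 23180 and 18140 UMIs. After thinning these shares were 3.61%, 2.8%, 3.1% and 3.48%, against 0.603%, 0.0825%, 0.417% and 0.321% in the T cell gate. Without the 5 highest cells the level was 54.9, 36.8, 43.8 and 59.9 CPM. In a plasmacytoid dendritic gate (at least 3 UMIs of Siglech and Klk1, no Cd3 UMI) Lcn2 was at 288, 18.5, 16.4 and 328 CPM from 3, 7, 8 and 8 cells, and at 0 to 2.89 CPM without the 5 highest.

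In macrophages and monocytes Lcn2 came from few cells. In the macrophage gate it was at 5.33, 19.4, 22.4 and 22.9 CPM, and at 2.52, 2.8, 6.37 and 8.57 CPM in macrophages with no epithelial-gene UMI. In the monocyte gate it was at 54.7, 6.54, 47.7 and 141 CPM, with 89.4%, 63.8%, 69.4% and 71.9% of UMIs in the 5 highest cells. Basal tumour genes there summed to 77.5, 8.24, 93 and 123 CPM, lowest with phenformin as Lcn2 was, and their part in the Lcn2 level was not tested. In the T cell gate Lcn2 was at 27.3, 1.13, 62.9 and 9.95 CPM, so the macrophage levels in control and poly I:C lay below that of T cells. Without the 5 highest cells of each gate, T cells were at 5.42 CPM in the control and 4.12 CPM with poly I:C. Macrophages were then at 2.59 and 7.63 CPM, so that with poly I:C they lay above T cells.

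Among the macrophage, monocyte, neutrophil and tumour gates, Hp was highest in neutrophils, where its only called ratio to control was that of the combination. Its level was 293 CPM (258 to 332) in the control, 317 CPM with phenformin, 298 CPM with poly I:C and 619 CPM (576 to 663) with both. The ratio to control was 1.08 (0.901 to 1.3) with phenformin and 1.02 (0.87 to 1.19) with poly I:C, intervals that hold 1, and 2.11 (1.83 to 2.44) with both. The combination was 2.08 times poly I:C and 1.95 times phenformin; 7.82% and 8.45% of all features in the neutrophil gate were called higher in those comparisons. Called features for the combination over poly I:C numbered 449 higher and 972 lower, or 839 and 427 with TMM factors. Hp UMIs were found in 35.3%, 35.4%, 55.9% and 57.1% of neutrophils, and in 25.4%, 22.1%, 34.3% and 38.7% after thinning. The T cell shares were 0.149%, 0.0821%, 0.771% and 0.599%.

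The poly I:C library thus had a larger share of neutrophils with Hp than the control, while their summed levels differed by less than counting error. Hp leaned less than Lcn2 on single cells: without the 5 highest the levels were 227, 255, 246 and 518 CPM. In neutrophils without Camp or Ngp they were 280, 322, 255 and 549 CPM, and in those with them 644, 235, 673 and 1002 CPM. The combination library was highest in each of these versions. Neutrophils with Hp had Lrg1, another secreted acute-phase glycoprotein, at 458, 457, 236 and 504 CPM against 80.2, 86.2, 30.6 and 193 CPM without. Retnlg was at 1784, 1015, 1567 and 3381 CPM against 504, 166, 109 and 613 CPM. Wfdc21 and Pglyrp1 were higher and the inflammatory genes Ccl3, Ccl4 and Ptgs2 lower in all 4 libraries.

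In the monocyte gate Hp was at 69.9, 54.7, 58.6 and 105 CPM. The combination was 1.91 times phenformin and 1.78 times poly I:C, both called, where 5.51% and 2.12% of all features were called higher; at 1.49 times control it was not. Monocyte-gate cells outside the macrophage and neutrophil gates had 22.9, 17.4, 14.4 and 27 CPM. Hp-bearing cells of this gate had Thbs1 (thrombospondin 1) at 2517, 2869, 1038 and 846 CPM against 393, 420, 163 and 97.1 CPM without. Chil3, Ifitm6, Lyz2, Vcan, Gda, Ccl6 and Mgst1 were higher with Hp. So were the neutrophil genes S100a8, at 541, 231, 2032 and 4754 CPM against 26.7, 47.1, 41.4 and 152 CPM, and S100a9, at 471, 241, 2799 and 8392 CPM against 41.6, 56.6, 79.1 and 352 CPM. Neutrophil markers over the whole gate summed to 294, 209, 1001 and 3229 CPM, and their part in its Hp level was not tested. The lymphocyte genes Pdcd1, Cd3g and Gzmb were lower, in a gate that also held T cells.

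In macrophages Hp was at 31.2, 24.9, 30.1 and 38.2 CPM, and differed more by Ly6c2 than by library. Macrophages with at least 2 Ly6c2 UMIs had 81.2, 55.8, 51.5 and 89.4 CPM, and those with at least 10 C1q UMIs had 7.71, 9.52, 15.7 and 13.1 CPM, so that the level was higher in the Ly6c2 subset in all 4 libraries; a cell can be in both subsets. Hp in the tumour gate was at 0.202, 0, 0.433 and 1.01 CPM. The fibroblast gate had 459, 6.22, 230 and 121 CPM. In the control, 1 cell with 119 UMIs made up nearly all of that gate's Hp, while 17 of 48 and 12 of 52 cells held a UMI with poly I:C and with both.

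In the gates below Hp was found more often in cells with Saa3, and in macrophage, monocyte and neutrophil-gate cells with Lcn2, than in cells without. Saa3 and Lcn2 showed no such steady pattern in the macrophage, monocyte and neutrophil gates. Hp was found in 29.2%, 32.5%, 27.6% and 19.7% of macrophages with Saa3 and in 12.8%, 13.7%, 13.5% and 13.4% of those without. In the monocyte gate the shares were 66.7%, 59.5%, 47.6% and 50% with Saa3 and 17.8%, 17.4%, 14.2% and 18.3% without. In fibroblast-gate cells of the poly I:C library Hp was in 55.2% of cells with Saa3 and 5.26% of those without, and in the combination in 45.8% and 3.57%. Of macrophages with Lcn2, 15.2%, 25.9%, 39.6% and 26.5% held Hp, against 13.4%, 14.7%, 14.6% and 14% of those without. These macrophages were the deeper cells, at medians of 14691, 15699, 13962 and 11279 UMIs against 9291, 12064, 12071 and 10342. For the monocyte gate the shares were 30.8%, 21.4%, 67.9% and 52.8% against 18.6%, 19%, 14.2% and 19.1%. In neutrophils Hp was in 41.1%, 42.3%, 74.5% and 65.8% of cells with Lcn2 and 32.4%, 30%, 38.5% and 46.9% of those without. The neutrophils with Lcn2 were the deeper cells, at median depths of 2154, 2519, 3526 and 2496 UMIs against 1887, 2004, 2424 and 2067. The fibroblast-gate cells with Saa3 were deeper by more than these neutrophils. Their medians were 19165 against 12513 UMIs with poly I:C and 20832 against 8002 in the combination. The part of depth in all these shares was not tested. Lcn2 was in 50%, 37.5%, 48.3% and 57.6% of neutrophils with Saa3 and 33.2%, 44.1%, 48.4% and 53.8% of those without. In macrophages it was in 1.39%, 3.31%, 4.77% and 5.41% with Saa3 and 2.3%, 2.5%, 3.45% and 3.18% without, and in the monocyte gate in 0%, 4.76%, 11.9% and 9.09% against 2.43%, 2.55%, 3.29% and 4.77%. In the fibroblast gate every cell with Lcn2 also held Saa3. These were 1 cell in the control, 9 with poly I:C and 5 in the combination, with 0 in the phenformin library. Lcn2 was there in 31% of cells with Saa3 and 0% without in the poly I:C library, and in 20.8% and 0% in the combination.

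Other acute-phase genes in macrophages mostly stayed under the rule for a call. Of the list's 25 genes, 6 could be tested, and 1, 1 and 2 of them were called higher over control with phenformin, poly I:C and both, with none lower, beside 0.426%, 2.72% and 3.98% of all features. Their median log2 ratio was 0.05, 0.17 and 0.03, beside -0.03, -0.09 and -0.03 for all features tested. Cfb, complement factor B, was at 69.7, 115, 117 and 159 CPM, lowest in the control and highest in the combination, as Saa3 was. Cp was at 20.7 CPM in the control and 39.9 CPM in the combination, 1.93 times. Of the receptors and partners of these proteins, Fpr2, a formyl peptide receptor that binds serum amyloid A, was at 28.6, 34.9, 56.4 and 59.3 CPM, called higher with poly I:C and with both. Tlr2, another receptor reported for serum amyloid A, was 1.65 times control in the combination, and Hmox1, which degrades haem, 1.53 times with poly I:C. Of the list, 9 were tested, and 0, 2 and 3 were called higher, beside the same shares of all features. At least 1 of these 9 reached the minimum only through the control library, where it is high, so no count of lower calls is given. The median log2 ratio was 0.11, 0.44 and 0.26.

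Among the genes known to induce acute-phase genes, neither of the 2 cytokines tested in macrophages was called: Il1b was at 531, 637, 530 and 527 CPM and Osm at 80.5, 88.7, 87 and 83.8 CPM, while Il6 at 4.09, 2.73, 2.22 and 1.65 CPM was under the minimum. Of 6 cytokine receptors none was called with phenformin, and only Il6st, the shared interleukin-6 signal transducer, was called with poly I:C (0.602 times) and with both (0.526 times). Of 10 transcription regulators only Nfkb1 was called, at 0.59 and 0.557 times control in the same libraries. Of all features in this gate 0.426%, 2.72% and 3.98% were called higher and 0.479%, 4.27% and 4.64% lower over control. The median log2 ratio was 0.2, 0.05 and 0.02 for the inducing cytokines, -0.07, -0.06 and 0.03 for the receptors, and -0.04, -0.14 and -0.09 for the regulators. For all features tested it was -0.03, -0.09 and -0.03. Of 3 neutrophil granule genes tested in macrophages, 1 was called higher with phenformin and 1 lower with both, with median log2 ratios of 0.29, -0.05 and -0.04.

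Of the granule and maturation genes, 9 reached the minimum in neutrophils in each comparison with control. In the combination 6 of these were called higher and none lower (Camp, Ngp, Ltf, Mmp8, Chil3 and Retnlg), where 8.25% of all features were called higher and 15% lower. A further 3, Cd177, Elane and Prtn3, reached the minimum only through the combination library, where they are high, and are not counted. Camp (cathelicidin) was at 129, 2.7, 238 and 1790 CPM and Ngp at 138, 1.35, 142 and 1335 CPM, both 1 to 2 UMIs in the phenformin library. Chil3 was at 26, 131, 327 and 529 CPM. With phenformin 1 of the 9 was called higher and 4 lower, and with poly I:C 4 and 2, where 4.35% and 7.33%, and 16.5% and 13.7%, of all features were. The median log2 ratio was -0.19 with phenformin and 0.04 with poly I:C.

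In the neutrophil gate, of 10 transcription regulators, 1 was called higher and 7 lower with poly I:C, where 16.5% and 13.7% of all features were. In the combination 1 was called higher and 4 lower, where 8.25% and 15% of all features were. The medians were -0.75 and -0.47. The same shares of all features stand beside the counts of the other lists with poly I:C and with both. Nfkbiz, an inducible NF-kB cofactor that is needed for Lcn2 induction, was at 0.26 times control with poly I:C and 0.396 times with both, and Cebpa was higher, at 1.83 and 2.01 times. Inducing cytokines had 2 called lower of 4 in each, with Osm at 148, 234, 52 and 84.6 CPM. Cytokine receptors had 5 and 3 called lower of 7. Of the other acute-phase genes 7 were tested with phenformin, but 8 with poly I:C and 8 with both. At least 1 of these 8 thus reached the minimum only through a library with poly I:C, so no count is given for those comparisons. Il1rn, the interleukin-1 receptor antagonist, was at 1873 CPM in the control, 387 CPM with poly I:C and 444 CPM with both. Lrg1 was 1.93 times control in the combination. Receptors and partners had 0 called higher and 4 lower of 11 with poly I:C, and 1 and 1 of 10 with both. At least 1 of the 11 with poly I:C was under the minimum in the control and was tested only through the poly I:C library. With phenformin, where 4.35% of all features were called higher and 7.33% lower, the counts were 1 higher and 0 lower of 4 cytokines, 0 of 7 cytokine receptors, 0 and 1 of 10 regulators, 1 and 0 of 7 other acute-phase genes and 1 and 1 of 11 receptors and partners. At least 1 of those 11 was under the minimum in the control and was tested only through the phenformin library.

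In the monocyte gate 4 of the 9 granule and maturation genes tested in the combination (Ngp, Ltf, Mmp8 and Cxcr2) reached the minimum only through that library, so no count is given. Camp there was at 11.6, 0.379, 30.2 and 205 CPM and Ngp at 11.9, 0, 17.5 and 152 CPM. Neutrophil marker genes in the gate moved with them, at 294, 209, 1001 and 3229 CPM, and 21, 18, 46 and 58 cells were in both gates; their part in these levels was not tested. No granule gene reached 20 CPM in the tumour gate. In the tumour gate Csf3, the granulocyte colony-stimulating factor, was the sole inducing cytokine to reach the minimum, at 17.3, 14.7, 27.2 and 39.9 CPM. It did so only through the libraries with poly I:C, where it is high, so no call is counted for it. In this gate 1.45% of all features were called higher with poly I:C and 1.82% with both. Called features for poly I:C in this gate numbered 86 higher and 965 lower (16.3% lower), or 375 and 314 with TMM factors. Of 4 other acute-phase genes 2 were called lower with poly I:C and 2 with both, where 16.3% and 11.7% of all features were. Cp, which was higher in tumour cells with Lcn2, was at 181, 149, 108 and 108 CPM.

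The genes whose levels were most like those of each member over the 16 sums of 4 gates in 4 libraries are given as a description, since sums share libraries. For Saa3 they were P2ry13 and Mthfsl (Pearson r of log2 levels 0.96 for both), Irf7 (0.93), Fam32a (0.92) and Sap18 (0.92). For Lcn2 they were Ube2b (0.93), Gcnt1 (0.92), Eif1 (0.92), Isg20 (0.9) and Rab9 (0.89). For Hp they were Ypel3 and Samsn1 (0.99 for both) and Fas, Trem3 and Fgd3 (0.98 for each). Between the members r was 0.76 for Saa3 and Hp, 0.26 for Lcn2 and Hp, and -0.05 for Saa3 and Lcn2.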

How the data were processed

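The deposited files hold whole UMI counts for each gene in each barcode. Per the file headers, the authors used Cell Ranger 3.1.0, and the submitters' processing notes name mm10 and GRCm38. Alignment and filter settings were not stated. Kept cells had at least 200 genes and under 20% mitochondrial UMIs (57332308, 61097586, 76070132 and 71308923 UMIs in the control, phenformin, poly I:C and combination libraries). Depths of the 3 genes are given beside their levels. No doublet caller was run. Cells in 1 gate only and cells without the deepest 5% were used instead. A T cell gate served as a rough level of free RNA, which a few high cells can raise. Counts were summed per gate and library and scaled to 1000000 UMIs of the gate (CPM). Intervals are exact (Poisson for levels, conditional binomial for ratios, Clopper-Pearson for shares) at 95%; UMIs of 1 cell are not independent, so true errors are wider. Thinning drew 1000 UMIs per cell and left out shallower cells.

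The members and gene lists were chosen with earlier results of these data known. Named genes were the members, up to 4 called genes per list with the largest ratios, the 5 most alike by Pearson correlation of log2(CPM + 5) among features with at least 20 CPM, and any gene given as low. For cells with against without a member, 10 genes each way of at least 50 CPM were ranked by their smallest log2 ratio over the 4 libraries with 20 CPM added; these rankings were chosen after seeing the data. Cebpd was not analysed here. Calculations were tested on simulated data. Python 3.11.15, numpy 2.4.6, scipy 1.17.1, pandas 2.3.3 and matplotlib 3.10.9 were used, with edgeR 4.0.16 in R 4.3.3 for TMM factors. TMM factors moved the median log2 ratio by over 0.1 in monocytes with poly I:C (0.13), neutrophils with poly I:C (-0.14) and tumour cells (0.14, 0.22 and 0.16). Positions are from GENCODE vM21.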

Additional observations from a re-analysis of the deposited data

Results flagged for a closer look

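Barcodes left out of the report, for under 200 genes or at least 20% mitochondrial UMIs, also held the genes, and for 3 levels there the 95% counting interval lay wholly above that of the control library. Saa3 was at 26.1 CPM with poly I:C and 54.5 CPM in the combination, against 5.17 CPM in the control. Hp was at 30.8 CPM in the combination, against 5.17 CPM in the control. Saa3 and Hp with phenformin were at 14 and 9.11 CPM, with intervals that overlapped that of the control. Lcn2 was at 54, 10.3, 42.3 and 43.7 CPM in the control, phenformin, poly I:C and combination libraries, with no treated library above the control. There were 1214, 1086, 1049 and 1035 such barcodes.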

How the results depend on the processing

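No paired analysis was possible because each treatment has 1 library, and for the same reason no replicate could be left out. Ratios to control are given in the order phenformin, poly I:C, combination where 3 are listed, and the cause of a change was not tested. The stricter cell filter (500 genes, 10% mitochondrial) and TMM factors moved no ratio to control of Saa3 in macrophages or neutrophils, or of Lcn2 or Hp in neutrophils, out of its interval. Among cells in 1 gate only, Saa3 in macrophages was 4.4, 6.99 and 9.64; in neutrophils Lcn2 was 1.57, 3.15 and 1.58 and Hp 1.81 in the combination. Stricter gates gave 6.35 for Saa3 in macrophages in the combination and 1.09 for Lcn2 in neutrophils with poly I:C. The mean over cells gave Saa3 in macrophages 3.88 with phenformin and 11.1 in the combination, Saa3 in neutrophils 9.54 in the combination, and for poly I:C and the combination Lcn2 1.16 and 1.65 and Hp 1.32 and 1.75 in neutrophils. Thinning gave, for poly I:C and the combination, Saa3 in macrophages 3.89 and 9.7, Lcn2 in neutrophils 1.29 and 1.59, and Hp 1.37 and 1.64. Without the deepest 5% of cells Lcn2 in neutrophils was 1.07 and 1.85, and Hp 1.8 in the combination. Without the top 1% by the gene, Saa3 in macrophages was 8.02 and 17.3 and Lcn2 in neutrophils 0.851 and 1.88, the first below 1. Subtracting the T cell level, which lay mostly in a few cells, gave Saa3 in macrophages 2.81 and 5.22. Settings added after seeing the data gave, in neutrophils without macrophage UMIs, Lcn2 4.29 and 3.45 and Saa3 1.1 with phenformin and 11.7 in the combination; without Camp or Ngp, Lcn2 1.58 and 1.41; in macrophages, Saa3 3.92 with poly I:C without collagen UMIs, and 2.69, 3.44 and 8.98 without S100a8 or S100a9. Further ratios that crossed 1 were Saa3 in the monocyte gate for phenformin over control (0.55, 1 gate only) and combination over phenformin (0.541, T cell level subtracted), Lcn2 in the monocyte gate for phenformin over control (1.01, top 1% left out), and Lcn2 for combination over phenformin in tumour cells (0.414, deepest 5% left out) and neutrophils (0.969, without Camp or Ngp). Of 646 ratios recomputed in all, 330 stayed within the interval of the reported one, 310 moved without turning and 6 turned. Counts of called features moved by over 1.5 times in 42 of 50 cases at a minimum of 50 CPM, 40 of 50 with no minimum and 16 of 50 with TMM factors. Ratios of Saa3 and Hp in the tumour gate, and of Lcn2 in the macrophage and monocyte gates after subtraction of the T cell level, gave no value under some settings because a level reached 0. Neutrophil values rest on 178 to 280 cells per library and fibroblast-gate values on 15 to 52, which limits both.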
